A study of Mus musculus with 6 samples.

Results

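Haemoglobin and red cell transcripts were followed in RNA of laser-captured cervical motoneurons of mouse embryos. The genes were Hba-x, Hba-a1, Hbb-y, Hbb-bh1 and Hbb-b1 (globins), Alas2 (haem synthesis), Klf1 (transcription factor), Slc4a1 (membrane) and Ahsp, and every probe set whose listed gene symbol was one of them, alone or together with other globin genes, was taken. This gave 17 of 45037 probe sets (controls left out) for 8 of the 9 genes, among 19324 genes listed for the array. Ahsp was not analysed here. Of the 17 probe sets, 4 are shared: 3 list Hba-a1 with its near-identical copy Hba-a2, and 1 lists Hbb-b1 with Hbb-b2, Hbb-bs and Hbb-bt, so their signal cannot be assigned to a single gene.

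The samples were the left and the right cervical motoneuron pool of 3 littermate embryos, which gives 2 groups of 3 pools and 6 arrays. All embryos carried the HB9::GFP transgene, in which the HB9 (Mnx1) promoter drives a green fluorescent reporter in spinal motoneurons, and all were at E11.5 (embryonic days) by the methods and labels, and at E11 by the study's results text. No treatment and no other allele is given. Both pools of an embryo came from the same sections, so right and left were compared within embryos, and the capture takes whatever lies between the fluorescent cells.

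In the mouse embryo the first red cells arise in the yolk sac, circulate with their nuclei and carry embryonic haemoglobins, built from the zeta chain (Hba-x) or alpha chains (Hba-a1, Hba-a2) and the epsilon-y and beta-h1 chains (Hbb-y, Hbb-bh1). Red cells of the fetal liver follow and carry adult haemoglobin of alpha and beta chains. Alpha-like and beta-like genes lie in a cluster each, and within both clusters the embryonic genes precede the adult ones. Klf1 is the erythroid Krüppel-like factor that binds CACCC boxes of globin promoters, and Gata1 binds GATA motifs there.

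The 150 bases before the start of 4 globin genes are shown, from RefSeq promoter windows on GRCm38.p6. Of the 9 genes, 5 were found in these windows (Hba-x, Hba-a1, Hbb-y, Alas2 and Klf1). A link between the promoters and the levels in the pools was not tested. Hbb-bs stands for the adult beta genes of the shared Hbb-b1 probe set. Capitals mark 6 motifs on either strand: the CACCC box, the CCAAT box, GATAA or else GATAG as GATA motifs, and TATAA or else ATAAA as forms of the TATA box, which can overlap each other, as they do in Hba-x.
Hbb-y (chr7:103853208-103853357, minus strand): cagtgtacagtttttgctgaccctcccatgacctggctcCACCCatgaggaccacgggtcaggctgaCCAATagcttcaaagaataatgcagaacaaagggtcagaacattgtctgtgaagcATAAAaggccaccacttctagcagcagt
Hba-x (chr11:32276450-32276599, plus strand): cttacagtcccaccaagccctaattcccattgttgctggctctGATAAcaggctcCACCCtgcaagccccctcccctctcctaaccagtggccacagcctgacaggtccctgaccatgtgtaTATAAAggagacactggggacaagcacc
Hba-a1 (chr11:32283522-32283671, plus strand): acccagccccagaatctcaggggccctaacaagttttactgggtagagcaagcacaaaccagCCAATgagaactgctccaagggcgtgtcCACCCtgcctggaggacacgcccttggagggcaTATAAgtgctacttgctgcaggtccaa
Hbb-bs (chr7:103827929-103828078, minus strand): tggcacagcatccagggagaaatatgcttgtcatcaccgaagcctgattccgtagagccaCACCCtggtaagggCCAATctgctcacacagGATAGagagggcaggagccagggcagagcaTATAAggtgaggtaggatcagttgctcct
A CACCC was present once in each of the 4 windows, and 37.4% of all 32851 promoter windows of this length hold it. CCAAT occurred in those of Hbb-y, Hba-a1 and Hbb-bs (24.5% of all), GATAA in that of Hba-x (13.3%) and GATAG in that of Hbb-bs (12.3%). TATAA (14.2% of all) was found 28 bases before the start in Hba-x, 27 in Hba-a1 and 29 in Hbb-bs, and ATAAA (24.1%) 28 bases before the start in Hbb-y. The windows of Hba-a1 and Hba-a2 shared an unbroken run of 297 bases out of 300. These are matches of letters and not binding sites.

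Values are MAS5 signals on a linear scale that the authors computed, with the same trimmed mean of 500 on each array. Only the same probe set was compared between pools, since the levels of different probe sets have no common scale. Tests were limited to probe sets that reached a signal of 200 on at least 1 array, as 13 of the 17 did (21853 of all). These 13 belong to Hbb-y, Hbb-bh1, Hba-x, Hba-a1, Hbb-b1, Alas2 and Slc4a1, and 10 of them are globin probe sets. The others were 1 of Klf1, 1 of Slc4a1 and 2 of Hba-a1.

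Transcripts of embryonic and adult globins were read in all 6 pools of motoneurons, and pools of the same side differed widely. The left pool of embryo 1 was the lowest of the 6 for 9 of the 10 globin probe sets, and the highest was a pool of embryo 3 for all 10. Averaged over the 10 on the log2 scale and set against the left pool of embryo 1, the right pool of embryo 1 was at 2.48-fold, the left and right pools of embryo 2 at 1.48-fold and 1.28-fold, and those of embryo 3 at 2.95-fold and 2.89-fold. In these bulk samples, fewer red cells and less RNA per red cell cannot be told apart.

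Hbb-y, the epsilon-y chain of embryonic haemoglobin, was read by 3 probe sets. The brightest (1436823_x_at) gave 19039.8, 22632.5 and 33198 in the left pools of embryos 1, 2 and 3 and 32759.8, 21128.5 and 28344 in the right pools. The left pools covered the whole range of the right ones, so the sides overlapped. A second probe set (1436717_x_at) ran from 18398 to 33811 in the same order of pools at its ends. The last (1450621_a_at) was dimmer, with 1461, 1896 and 3670.1 on the left, against 2953, 1591 and 4442 on the right. Over the 6 pools, highest over lowest was 1.74 and 1.84 for the bright probe sets and 3.04 for the dim one, and the bright ones lay near the highest signals of the arrays (36851 to 53562). Whether their scale is compressed there was not tested.

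Hbb-bh1, the beta-h1 chain of the same cells, varied more widely. Its brightest probe set (1437810_a_at) gave 798, 1528 and 2989 on the left, against 2622, 958 and 2556 on the right. The dimmest (1450736_a_at) gave 254, 809.8 and 1414 on the left, against 1139.9, 476 and 1449 on the right, a range of 5.70-fold. In both, the left pool of embryo 1 was lowest and the right pool of embryo 2 came next. The remaining probe set (1437990_x_at) ran from 721 to 2332 with the same lowest pool.

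Hba-x, the zeta chain and the alpha-like partner of the earliest haemoglobin, is represented by a single probe set (1448716_at). Its signals were 218, 260.4 and 961 on the left, against 629, 335 and 1113 on the right. The right pool was the higher in each of the 3 embryos, but both pools of embryo 3 exceeded the 4 other pools on either side, so the sides overlapped. Of the 13 member probe sets past the limit, Hba-x alone had the same direction in every embryo, and its range over the pools was 5.11-fold.

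Hba-a1, the adult alpha chain that embryonic red cells also make, was read by 2 shared probe sets past the limit. The first (1428361_x_at) gave 1007, 1421 and 2682 on the left, against 1728, 1632 and 2622 on the right. The second (1452757_s_at) gave 309, 504 and 1091 on the left, against 911, 384 and 1003 on the right. Embryo 3 was high on both sides in both, and embryo 1 was low on the left alone. The probe set listed for Hba-a1 alone (1453574_at) read 6.77 to 58.9 and a further shared one (1417714_x_at) 2.93 to 46.4, both under the limit in every pool and without the order of the bright ones.

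Hbb-b1, the adult beta chain, was read by the probe set it shares with its copies (1417184_s_at), at 1805, 1561 and 4045 on the left, against 4094, 1414 and 4135.5 on the right. Both pools of embryo 3 and the right pool of embryo 1 lay close together, and the 3 other pools were below the lowest of them by more than the spread within either set. Among non-member globins past the limit, the probe set of Hba-a2 alone read 190, 392 and 577 on the left, against 470.4, 242 and 733 on the right, again lowest in the left pool of embryo 1 and highest in embryo 3.

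The other members lay near the limit of 200 or under it. Alas2, the erythroid enzyme that starts haem synthesis, gave 182, 294 and 276 on the left, against 373, 91.2 and 219 on the right. It was highest in the right pool of embryo 1 and lowest in the right pool of embryo 2, unlike the globins in that embryo 3 did not stand out. Slc4a1, the anion exchanger band 3 of the red cell membrane, gave 136, 263 and 229 on the left, against 189, 152 and 264 on the right with its brightest probe set (1416464_at), and a second one (1434502_x_at) ran from 77.0 to 245. The last (1431743_a_at) stayed between 38.5 and 144.

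Klf1 stayed under the limit, with 35.5, 61.2 and 128 on the left, against 48.6, 47.6 and 96.1 on the right (1418600_at). Its order resembled that of the globins at the ends, with the left pool of embryo 1 lowest and both pools of embryo 3 highest, but at signals where no test was made.

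**Figure D1:**
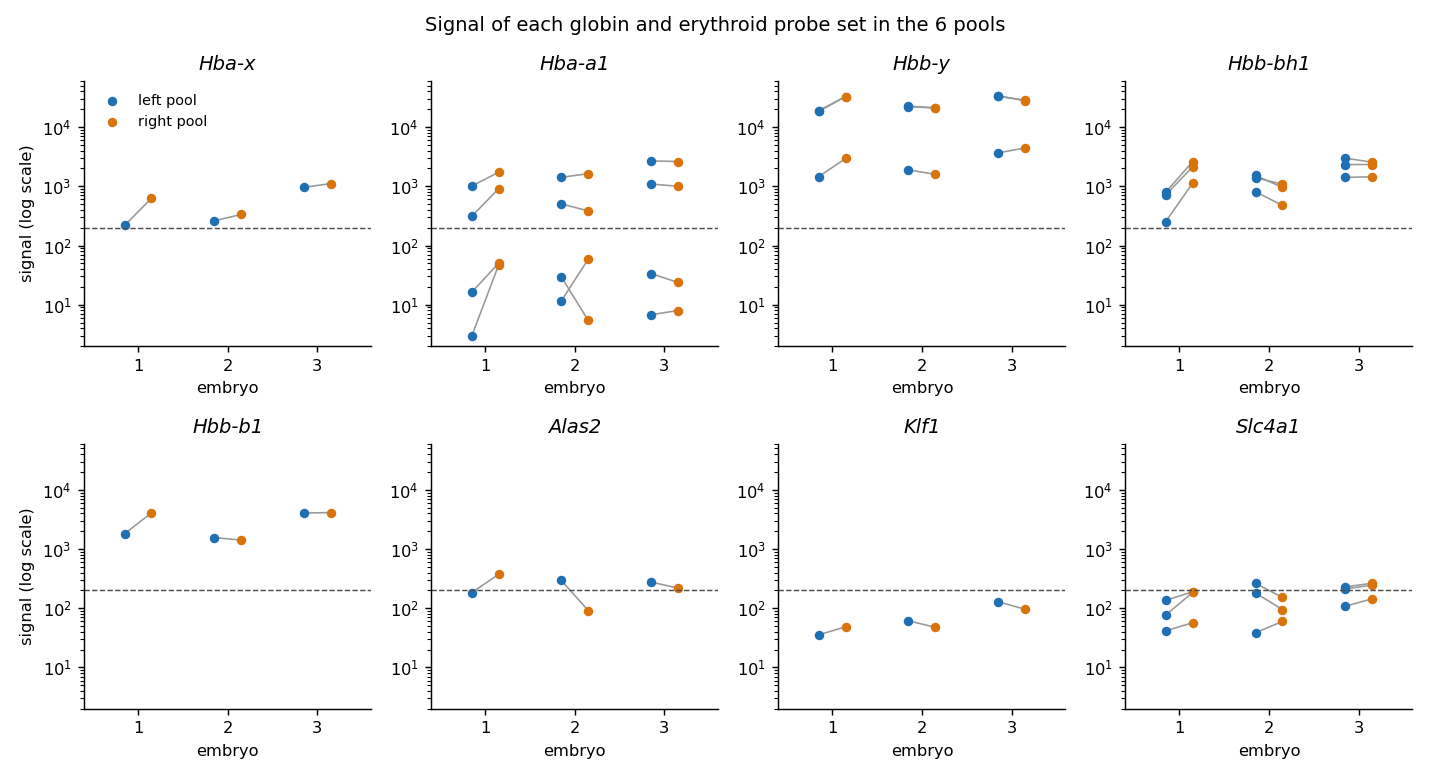
Signal (log scale) of all 17 probe sets of the 8 genes in the left (blue) and right (orange) pool of each embryo, 1 panel per gene, with a grey line joining the pools of an embryo for the same probe set and a dashed line at the limit of 200. The globin lines above the dashed line rise from left to right in embryo 1, lie low in embryo 2 and are high in embryo 3, and the 2 Hba-a1 probe sets under it do not follow this order.

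The question of the design was whether left and right motoneurons differ, and for the globins the direction varied between embryos. In embryo 1 all 13 probe sets past the limit were higher on the right, with log2 right over left from 0.47 to 2.16 (median 1.18). In embryo 2 only 2 of the 13 were higher on the right (Hba-x and 1 of Hba-a1), with values from -1.69 to 0.36 and a median of -0.36. In embryo 3 the values lay between -0.34 and 0.28 with a median of 0.00, and 7 of 13 were above 0.

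A difference past 1.5-fold toward the right was met in embryo 1 by 12 of the 13 (all 10 globin probe sets, Alas2 and 1 of Slc4a1), against 19% of all probe sets tested, and toward the left by 0, against 16.4%. In embryo 2 none was past 1.5-fold toward the right (16.7% of all) and 5 were past it toward the left (12.9% of all): 2 of Hbb-bh1, Alas2 and both of Slc4a1. In embryo 3 none was past it toward either side, where 2.75% of all probe sets were past it toward the right and 4.13% toward the left.

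Among the globin probe sets past the limit, the steepest ratio of embryo 1 was that of Hbb-bh1, whose 3 probe sets were 2.96-fold to 4.48-fold higher on the right. In embryo 2 the same probe sets stood at 0.59-fold to 0.78-fold, and in embryo 3 at 0.86-fold to 1.02-fold. Hba-x was 2.89-fold higher on the right in embryo 1, then 1.29-fold and 1.16-fold in embryos 2 and 3. Hbb-b1 stood at 2.27-fold, 0.91-fold and 1.02-fold in the same order, so that its difference was past 1.5-fold in embryo 1 alone.

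Averaged over the 3 embryos, log2 right over left was 0.70 ± 0.72 for Hba-x (SD, n = 3), 0.36 ± 0.72 for Hbb-b1 and 0.27 ± 1.27 for the brightest Hbb-bh1 probe set. It was 0.15 ± 0.55 for the brightest of Hbb-y, 0.32 ± 0.42 for the brightest of Hba-a1, -0.33 ± 1.36 for Alas2 and -0.04 ± 0.66 for the brightest of Slc4a1. The spread between embryos was thus larger than the mean for every member listed here. Tested with limma (side and embryo as terms, Benjamini-Hochberg over 21853 probe sets), 0 of the 13 differed between the sides, against 0% of all, with adjusted p from 0.974 to 0.995. At an unadjusted p under 0.05 there was 1 of 13 (Hba-x), against 3.4% of all probe sets.

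The rule by which the study sorted transcripts asks that the direction agrees across the embryos and that the change exceeds 1.5-fold in the mean and in at least 2 of them. None of the 13 met it, against 2.4% of all probe sets toward the right and 1.55% toward the left. Hba-x had the same direction in all 3 embryos but passed 1.5-fold in embryo 1 alone. With embryo 1 left out, the mean turned toward the left for Hbb-y, Hbb-bh1 and Hbb-b1, to -0.16, -0.45 and -0.06.

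**Figure D2:**
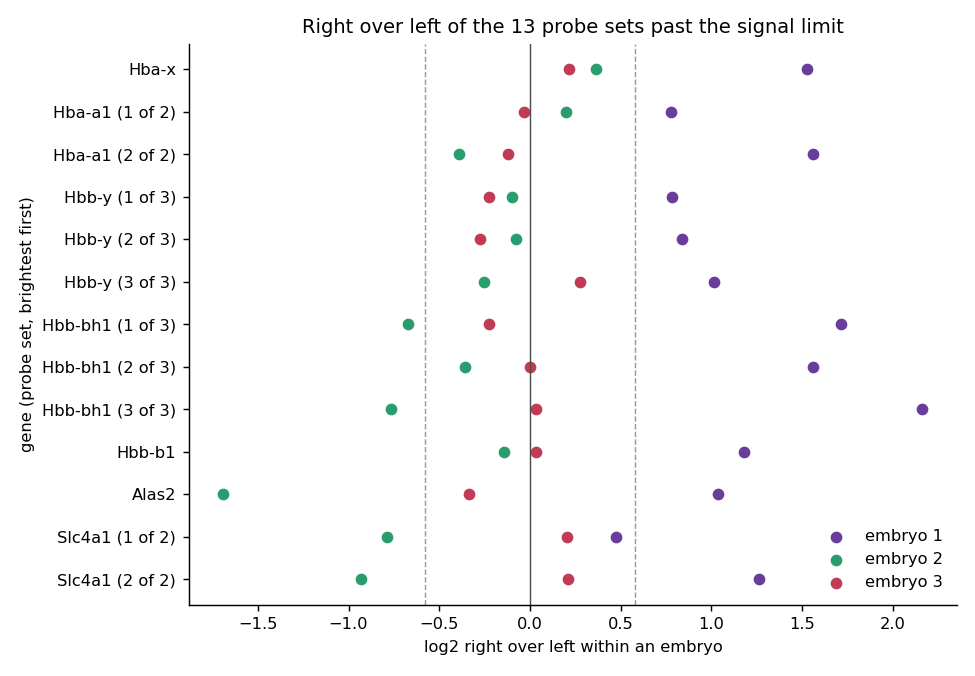
Log2 of right over left (horizontal axis) of the 13 probe sets past the signal limit (rows, brightest of a gene first), with 1 point per embryo and dashed lines at 1.5-fold in each direction. Embryo 1 lies on the right side of 0 in all rows, embryo 2 on the left side in 11 of 13, and embryo 3 between the dashed lines.

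The level between embryos was compared with the moderated F test of the same fit, in which the left and right pool of an embryo serve as its samples. With all 3 embryos, 0 of the 13 were called (limma F, smallest adjusted p = 0.115, for Hba-x), against 0.27% of all probe sets. At an unadjusted p under 0.05 there were 5 of 13 (Hba-x, both of Hba-a1, the dim Hbb-y and Hbb-b1), against 15.3% of all. The pools of embryo 1 differ most from each other, and leaving that embryo out changed the calls.

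Between embryos 2 and 3, all 10 globin probe sets were higher in embryo 3 at an adjusted p between 0.000112 and 0.0184 (limma without embryo 1), against 2.1% of all probe sets called in that direction. The difference was 3.50-fold for Hba-x, 2.75-fold for Hbb-b1, 1.90-fold to 2.31-fold for Hbb-bh1, 1.74-fold and 2.38-fold for Hba-a1, and 1.40-fold to 2.32-fold for Hbb-y. Alas2 and both probe sets of Slc4a1 did not pass (adjusted p from 0.430 to 0.786). Both pools of embryo 3 lay above both of embryo 2 for 11 of the 13, against 25.9% of all probe sets. Among the 11 was the Slc4a1 probe set 1434502_x_at, which reached the limit in embryo 3 alone. For this probe set the limit favoured that order.

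Between embryos 1 and 3, without embryo 2, 4 of the 13 were called higher in embryo 3 (Hba-x, 1 of Hba-a1, the dim Hbb-y and 1 of Hbb-bh1), against 2.37% of all. Both pools of embryo 3 were above both of embryo 1 for 8 of the 13 (6 globin probe sets and both of Slc4a1), against 27.1% of all. The limit favoured this order for the same Slc4a1 probe set (1434502_x_at). Without embryo 3, 0 of the 13 were called. These p-values rest on 1 animal per side of the comparison, 2 pools each and 1 residual degree of freedom per probe set before moderation, so they measure the spread within embryos and not that between animals.

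The scaling of the arrays did not change this pattern. The median of log2 right over left over all tested probe sets was 0.03, 0.03 and 0.00 in embryos 1, 2 and 3, and median scaling moved it to -0.14, -0.14 and 0.08. The median of the 10 globin probe sets was 1.36, -0.20 and -0.02 as deposited, 1.32, -0.18 and -0.03 after quantile normalization and 1.18, -0.37 and 0.07 after median scaling, which turned the sign in embryo 3. Both pools of embryo 3 stayed above both of embryo 2 for all 10 under each scaling.

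The balance of embryonic and adult chains was read as the mean log2 signal of Hba-x, Hbb-y and Hbb-bh1 minus that of Hba-a1 and Hbb-b1, each gene averaged over its probe sets, and only its differences between pools carry meaning. Right over left on the log2 scale was 1.41, -0.13 and 0.02 for the embryonic chains in embryos 1, 2 and 3 and 1.58, -0.11 and -0.04 for the adult chains. Their difference was -0.18, -0.02 and 0.06, with a mean of -0.05 ± 0.12 (SD, n = 3 embryos). In embryos 2 and 3 the right pool thus departed from the left by at most 0.06 log2 in this balance, while in embryo 1 both groups were far higher on the right.

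This difference includes the Hba-a1 probe sets that stayed under the limit. Over the 10 probe sets past the limit, a choice added after the data were seen, it was 0.23, -0.01 and 0.05, with a mean of 0.09 ± 0.13, so the sign in embryo 1 depends on them. Over the 6 pools the balance then spanned 0.38 log2, while the embryonic chains spanned 1.75 and the adult ones 1.39. The balance was then highest in the left pool of embryo 2, whereas with all 12 it spanned 0.69 log2 and was highest in embryo 3.

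**Figure D3:**
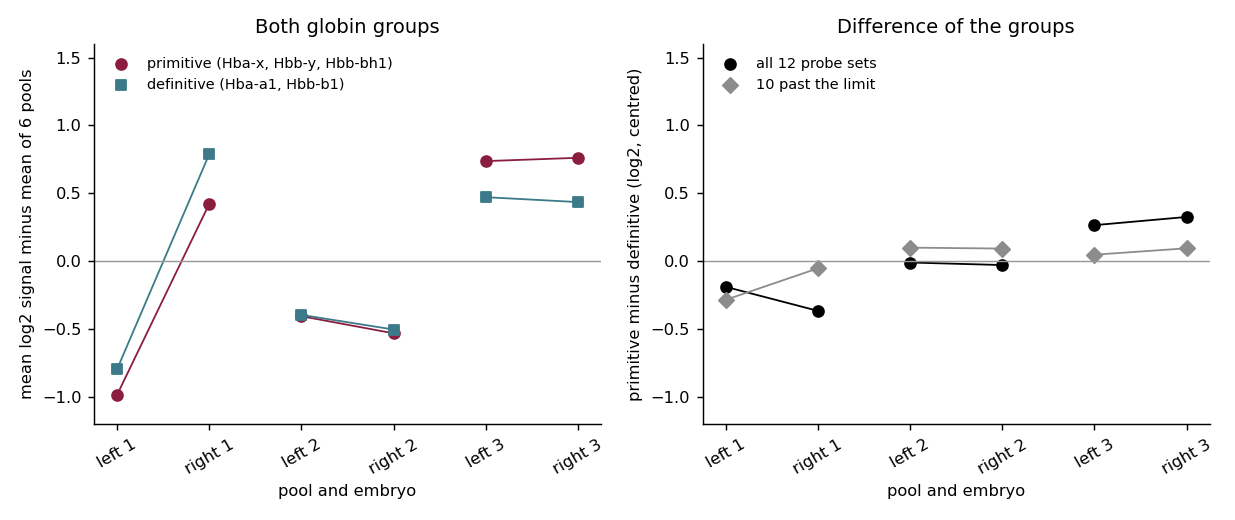
Left, mean log2 signal of the embryonic (circles) and adult (squares) globins in each pool, minus its mean over the 6 pools; right, the difference of the groups on the same scale, over all 12 probe sets (black) and over the 10 past the limit (grey), with lines joining the pools of an embryo. Both groups are lowest in the left pool of embryo 1, and their difference varies over 0.69 log2 (black) and 0.38 log2 (grey).

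The rest of the erythroid programme was described with lists of genes, each gene read from its brightest probe set that lists it alone. In haem synthesis, 8 of 9 genes were measured and all 8 reached the limit. None was called by limma or met the fold rule, and the median log2 right over left was 0.46, -0.12 and -0.02 in embryos 1, 2 and 3. Fech, which inserts iron into haem, gave 1778, 1529 and 3016 on the left, against 2479.9, 1524 and 2984 on the right, so embryo 3 was above the other pools. It was the only 1 of the 8 with both pools of embryo 3 above the left pool of embryo 1 and both pools of embryo 2. Of all probe sets tested, 18.5% had this order. Urod was lowest in embryo 3 (1382 and 1350.0, against 1864 to 2706 in the others), and Alad and Uros, enzymes of the same pathway, ranged over 1.48-fold and 1.64-fold.

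Of 14 erythroid transcription factors, all were measured and 6 reached the limit. Tal1, a helix-loop-helix factor of blood cells, gave 503, 979.5 and 1394 on the left, against 933, 913 and 1602 on the right, with the left pool of embryo 1 lowest and embryo 3 highest. Klf3 read 3105 and 3159 in embryo 3 against 1657 to 2224 in the others, and Lmo2 was likewise highest in embryo 3. These 3 of the 6 had both pools of embryo 3 above the left pool of embryo 1 and both pools of embryo 2, against 18.5% of all probe sets tested. Gata2 read 595 and 539 in embryo 3 against 476 to 774 in the others. Runx1 was lowest in embryo 3 (66.7 and 63.1) and reached the limit in the left pool of embryo 1 alone (303). Ldb1, a cofactor present in most cells, ranged over 1.29-fold. Gata1 stayed between 63.5 and 99.2. The factors past the limit are also made outside the red cell line, and none passed the adjusted F test.

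For the red cell membrane, 19 of 22 genes were measured and 11 reached the limit, led by Add2, Cd47, Bsg and Mpp1, which neurons and other cells make too and which ranged over 1.41-fold to 1.45-fold. Median log2 right over left was -0.08, -0.13 and 0.01. Among enzymes and late genes, 13 of 17 were measured and 9 reached the limit, led by Prdx2, Bpgm, Gpx1 and Cat, with medians of 0.01, -0.16 and -0.21. Both pools of embryo 3 lay above the left pool of embryo 1 and both pools of embryo 2 for 2 of the 11 membrane genes and 3 of the 9 enzymes and late genes, against 18.5% of all probe sets tested, and Prdx2, Bpgm, Gpx1 and Cat were not among them. Hemgn and Ermap, both of blood cells, were among the genes that did, and are named after their values were seen. Hemgn read 10.2, 357 and 1607 in the left pools, against 76.9, 195 and 1378 in the right pools, at an adjusted p of 0.0534 by the limma F test. Ermap read 86.7, 142 and 619.6 in the left pools, against 211, 129 and 593 in the right pools (limma F adjusted p = 0.115). The other genes with this order were Gypc, Car2 and Aldh1a7 (limma F adjusted p = 0.445, 0.103 and 0.315). Gypc and Aldh1a7 reached the signal limit in embryo 3 alone. For them the limit favoured this order, which can raise both counts. Hemgn, Ermap, Gypc, Car2 and Aldh1a7 were all picked for being high in embryo 3, so their p-values are no independent test.

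The remaining lists of the red cell pathway had medians closer to 0 in embryo 1 than the globins. Of 11 globin switching factors, 10 reached the limit, led by Igf2bp3 (6053 to 7734), and their medians were 0.10, 0.13 and 0.03. Iron uptake and import (11 of 12 measured genes past the limit, led by Fth1 and Glrx5) had medians of -0.10, 0.04 and -0.05, haem breakdown and binding (4 of 9) -0.08, 0.17 and 0.03, and erythropoietin signalling (5 of 8) 0.39, 0.33 and 0.07. No gene of these lists was called between the sides or met the fold rule. The globins of other tissues, Mb, Cygb, Ngb and Adgb, all stayed under the limit, and Hbb-b2 read 3.13 to 30.5 with the probe set that lists it alone.

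Among markers of other cells that the captures can hold, platelet genes had the directions of the globins in embryos 1 and 2 by their median. Their median log2 right over left was 2.20, -1.07 and -0.25 (6 of 9 measured genes past the limit). In embryo 1, 5 were past 1.5-fold toward the right (19% of all probe sets), and in embryo 2, 4 toward the left (12.9%). These ratios rest partly on signals far under the limit. In the left pool of embryo 1, Ppbp, Pf4, Itgb3 and Gp5 read 5.78, 29.2, 34.4 and 59.8. Ppbp and Gp5, both among the 4 past 1.5-fold toward the left in embryo 2, reached the limit in its left pool alone (279 and 225). The limit thus favoured that direction for them. With a highest signal of at least 500 required, the median over genes of the mean log2 ratio moved from 0.11 to -0.44. The summed signal of the list was 917, 2719.8 and 2286 in the left pools, against 1680.0, 1055 and 2170.0 in the right pools. Pf4, a chemokine of platelet granules, gave 29.2, 628 and 488 on the left, against 338, 107 and 569 on the right. Itgb3, a subunit of the platelet fibrinogen receptor, gave 34.4, 790.0 and 523 on the left, against 304, 34.7 and 519 on the right. Itga2b, its partner, was lowest in the left pool of embryo 1 (147) and highest in the left pool of embryo 3 (309). Gp1bb, the brightest gene of the list, was instead lower on the right in every embryo (log2 of -0.45, -0.49 and -0.37).

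Endothelial genes had medians of -0.03, 0.25 and -0.11 over 11 of 17 genes. In embryo 2 the sign was opposite to that of the globins. In embryo 1 the median was as small as that over all tested probe sets (0.03), so no direction is read from it. Genes of microglia and macrophages had medians of 0.12, -0.18 and -0.18 over 9 of 15. In embryo 2, however, 2 of the 9 were past 1.5-fold toward the right (16.7% of all probe sets) and 0 toward the left (12.9%). The summed signal of this list was 2965, 3559 and 4107 in the left pools, against 3489, 3814 and 3931 in the right pools. It was also lowest in the left pool of embryo 1 and highest in embryo 3, but in embryo 2 it was higher on the right. The sum of the endothelial list was 3666, 4259 and 3271 in the left pools, against 3534, 5100.0 and 2996 in the right pools. Kdr, a receptor of endothelial cells and the brightest gene of the list, was lowest in embryo 3 (447 and 351). It was alone in this among the 4 brightest. Cd34 read 323 and 472 in embryo 3 (163 to 473 in the others), Cldn5 444 and 439 (162 to 462) and Esam 284 and 283 (231 to 351). Dimmer genes of the list went both ways. Mesenchymal genes had right over left medians of 2.91, 1.17 and 0.01 over 11 of 17 genes. Of these, Col1a2, Col6a1, Fbln1 and Meox2 met the fold rule toward the right, as did 2.4% of all probe sets. However, 6 of the 11 genes reached the signal limit in right pools only, Col6a1 and Meox2 among them. The limit thus favoured genes high on the right, which can raise both the medians and the number of genes meeting the rule. The summed signal of the list was 2553, 1479.9 and 2672 in the left pools, against 19463, 3373 and 2737 in the right pools, so the right pool of embryo 1 that was high in globins was also high in mesenchyme, whereas the pools of embryo 3, high in globins, were not. The part of these cells in the globin differences was not tested.

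Motoneuron markers were present in all pools, and all 11 reached the limit. Mnx1 (HB9 itself) read 5219, 4160.1 and 3844 in the left pools of embryos 1 to 3, and 5139, 4029 and 3520.0 in the right pools. The summed signal of the 11 was 47667, 38135 and 28773 in the left pools, against 47816, 33699 and 28680.1 in the right pools, so it was nearly equal in the pools of embryo 1, where the globins differed most, and lowest in embryo 3, where the globins were highest. Prph, the intermediate filament peripherin, was called between embryos (limma F adjusted p = 0.0300) and fell from 23019 and 23486 in embryo 1 to 10514 and 10753 in embryo 3. It was the brightest of the 11 and so weighed most in the sum. Of the 4 brightest, Prph, Isl1 and Mnx1 were lowest in embryo 3. Lhx3 was instead lowest in embryo 2 (2909 and 3263) and read 3310 and 3467 in embryo 3. Genes of all neurons had medians of 0.09, 0.02 and -0.04.

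**Figure D4:**
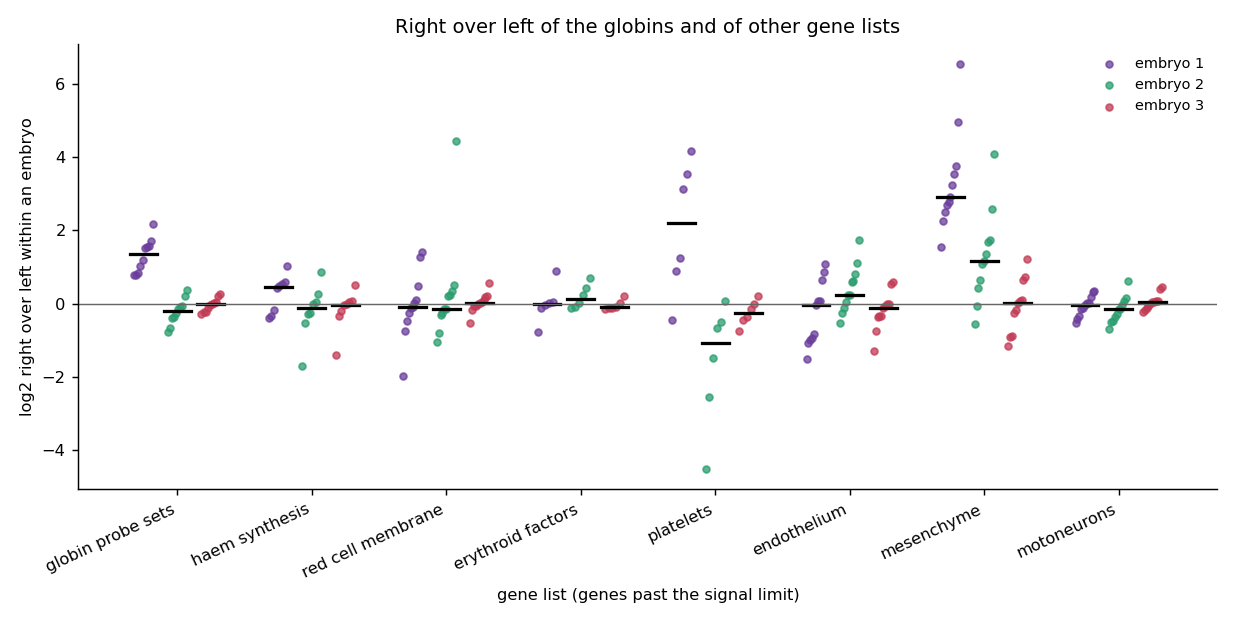
Log2 of right over left of the 10 globin probe sets and of the genes past the signal limit in 7 lists, with 1 point per probe set or gene, 1 colour per embryo and black bars at the medians. The medians of globins and platelet genes are above 0 in embryo 1 (1.36 and 2.20) and below it in embryo 2 (-0.20 and -1.07), while those of motoneuron genes stay between -0.16 and 0.03.

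The probe sets of other single genes closest in profile were found by the root mean square difference of centred log2 signals over the 6 pools, which come from 3 embryos, from the mean profile of the 12 globin probe sets. Among 18939 candidates the closest were Smc4 (0.110), Tes3-ps (0.110), Cracd (0.137), 1500015A07Rik (0.137) and Dsn1 (0.138), against 0.584 for a flat profile and 0.107 to 0.455 for the globin probe sets past the limit themselves. Smc4, a subunit of condensin, read 516, 759 and 1459 on the left, against 1641, 705 and 1586 on the right. Dsn1, of the kinetochore, read 126, 166 and 279.6 on the left, against 353, 154 and 265 on the right. Hba-a2 ranked 78th by this measure (0.267), and 3 of the 5 were also among the closest 5 with the 10 probe sets past the limit.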

How the data were processed

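Left and right cervical motoneuron pools of 3 embryos were laser-captured. RNA with an integrity number above 9 was amplified, and the product was hybridised to Affymetrix mouse arrays. The deposited table holds linear signal intensities, which the authors computed with MAS5 in Affymetrix Expression Console (version not given in the sources used here), with a trimmed mean of 500 per array. Probe sets were named from the platform annotation, and 64 controls were left out.

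Signals were taken to log2 with no constant added. Probe sets whose highest signal reached 200 entered a limma fit (version 3.58.1, R 4.3.3; side and embryo as terms, trend on the mean signal, Benjamini-Hochberg threshold 0.05), and the study's fold rule was applied beside it. The smallest p an exact sign-flip test allows with 3 embryos is 0.25. The scripts were tested on simulated data. Left and right of an embryo were paired because they come from 1 animal and the same sections: after each side's mean was subtracted, they correlated at 0.241, 0.215 and 0.495.

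Members and lists were chosen with earlier results of these data known. Named genes were all member probe sets, up to 4 brightest genes per list, list genes past the fold rule or limma, and the 5 closest in profile. Outside this rule, Hemgn, Ermap, Gypc, Car2, Aldh1a7, Gata1, Gata2, Runx1, Hbb-b2, Mb, Cygb, Ngb and Adgb were named after their values were seen. Alternatives were other scalings (quantile, median), 50 added to the signals, other signal limits, an embryo left out, no term for embryo, no variance trend, other fold limits and other probe sets per gene. Detection calls were not used here. The number of arrays limits the precision.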

Additional observations from a re-analysis of the deposited data

How the results depend on the processing

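No member probe set was called between the sides under any of the alternatives run. The left and right pools are paired, and without the replicate block limma called 0 of all probe sets, as with it. Leaving out an embryo gave 0 to 1 called probe sets between the sides, none of them a member, and 0 to 10 called member probe sets between embryos (10 without embryo 1, 4 without embryo 2, 0 without embryo 3). Over all probe sets, the count called between embryos (59) became 242 with median scaling, 165 with 50 added to each signal, 14 with no limit on the signal, 38 with a mean signal of at least 200, 0 without a variance trend, and 5 to 846 with an embryo left out. Mean log2 right over left changed sign with an embryo left out: it ran from -0.16 to 0.34 for Hbb-y, -0.45 to 0.74 for Hbb-bh1 and -0.0551 to 0.61 for Hbb-b1, each negative without embryo 1 alone, and from -1.01 to 0.35 for Alas2 and -0.29 to 0.34 for Slc4a1, each positive without embryo 2.

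The fold rule (862 probe sets, 524 higher on the right and 338 on the left) found 530 (333 and 197) with 50 added, 4501 (2805 and 1696) with no signal limit, 235 (131 and 104) with a highest signal of at least 500, 410 (234 and 176) with a mean signal of at least 200, 286 (191 and 95) at 2-fold and 133 (84 and 49) past the limit in all 3 embryos. With an embryo left out it found 398 to 1712 (200 to 1070 on the right, 176 to 642 on the left). With no signal limit it held 1 member, the dim Hba-a1 probe set 1453574_at. List genes meeting it numbered 4 as reported, 2 with 50 added and with either stricter limit, 12 with no limit and 3 to 11 with an embryo left out. Embryonic minus adult globins, right minus left, was -0.05 as reported, 0.078 with 50 added, 0.0907 over probe sets past the limit and -0.97 with probe sets of 1 gene, where the adult group is the dim 1453574_at alone. The other causes were not tested. In all, 301 of 367 recomputed values kept their direction and side of the threshold, or stayed within the spread.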
